A study of Mus musculus with 12 samples.

Results

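Cyclin-dependent kinase inhibitors were followed by gene name across the array: the 8 genes Cdkn1a, Cdkn1b, Cdkn1c, Cdkn2a, Cdkn2b, Cdkn2c, Cdkn2d and Cdkn3, of 34797 gene names on it. All of their 13 probes were taken, of 55681 probes in all. Of the 13 probes, 11 passed the filter on dim probes, and each of the 8 genes kept at least 1 tested probe. RNA of the aorta was measured at day 3 on 12 arrays of 1 C57BL/6J mouse each, in 4 groups of 3. The DMSO group received dimethylsulfoxide, the vehicle. The rapamycin group received rapamycin, an inhibitor of the growth kinase mTOR, at 2 mg/kg/day into the peritoneum. The BA+DMSO group received beta-aminopropionitrile, which blocks collagen crosslinking, at 150 mg/kg/day with angiotensin II at 1 µg/kg/min and the vehicle. This challenge is the study's model of aortic dissection. The BA+rapamycin group received the same challenge with the same dose of rapamycin. All mice were young adult males per the study's methods. DMSO samples carry Pre in their titles, a word that in the paper means unchallenged mice, whereas the series record lists vehicle alone and day 3.

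Cyclin-dependent kinases drive a cell through division once a cyclin binds them, and the inhibitors hold them back. The Cip/Kip proteins p21 (Cdkn1a), p27 (Cdkn1b) and p57 (Cdkn1c) bind complexes of cyclin and kinase. The Ink4 proteins p16 (Cdkn2a), p15 (Cdkn2b), p18 (Cdkn2c) and p19 (Cdkn2d) bind Cdk4 and Cdk6 and keep cyclin D away from them. Cdkn2a also encodes Arf, which starts from its own upstream promoter, is read in another frame and shields p53 from Mdm2. Cdkn3 is of another kind: it is a phosphatase that removes the activating phosphate of Cdk2, and its mRNA is known to be made mainly in dividing cells. In the artery p27 is known as a brake on smooth muscle division.

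Promoters are printed for some of the genes whose RNA differed between challenged and unchallenged mice, Cdkn3, Cdkn1b and Cdkn2a, and for Cdkn1a, a textbook target of p53. Cdkn2c was also called for the challenge, and its promoters, which held none of the motifs searched, are not printed. RefSeq promoters on GRCm38.p6 were found for 7 of the 8 genes (Cdkn1c was not matched), and the 250 bases before each start were searched on both strands. The letters searched were CCAAT for the CCAAT box, TTTGAA or TTCGAA for the CHR element of cell cycle genes, and TTTCCCGC, TTTCGCGC, TTTGGCGC or TTTGCCGC for the E2F site. The p53 decamer was searched by its consensus. None of these motifs contains another. Of 32851 promoters of the same length, 33.8% held a CCAAT box, 17.1% a CHR element, 1.86% an E2F site and 7.13% a p53 decamer. The Cdkn3 promoter lies at chr14:46760291-46760540 on the plus strand, and capitals mark its CCAAT boxes and CHR element. The Cdkn1b promoter lies at chr6:134920151-134920400 on the plus strand, with CCAAT boxes in capitals. The upstream Cdkn2a promoter lies at chr4:89294620-89294869 and the downstream one at chr4:89282193-89282442, both on the minus strand. Capitals mark an E2F site in the upstream one, and the downstream one held none. The upstream Cdkn1a promoter lies at chr17:29090729-29090978 on the plus strand, with p53 decamers in capitals.
Cdkn3 promoter: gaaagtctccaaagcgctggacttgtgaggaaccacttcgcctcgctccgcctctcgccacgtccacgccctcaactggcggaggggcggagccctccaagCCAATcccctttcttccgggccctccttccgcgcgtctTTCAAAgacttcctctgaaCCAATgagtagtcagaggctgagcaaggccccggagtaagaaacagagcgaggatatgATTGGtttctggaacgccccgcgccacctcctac
Cdkn1b promoter: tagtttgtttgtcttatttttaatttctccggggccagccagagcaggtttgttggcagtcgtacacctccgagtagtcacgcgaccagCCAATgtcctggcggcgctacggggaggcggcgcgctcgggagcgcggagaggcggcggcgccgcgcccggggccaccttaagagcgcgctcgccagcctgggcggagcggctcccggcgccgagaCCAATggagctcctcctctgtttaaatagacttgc
Cdkn2a upstream promoter: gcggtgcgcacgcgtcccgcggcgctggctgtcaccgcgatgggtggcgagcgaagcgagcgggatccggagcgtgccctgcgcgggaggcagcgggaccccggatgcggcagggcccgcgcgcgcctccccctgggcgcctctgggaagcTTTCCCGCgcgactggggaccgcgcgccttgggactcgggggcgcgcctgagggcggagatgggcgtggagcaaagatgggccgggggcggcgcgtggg
Cdkn2a downstream promoter: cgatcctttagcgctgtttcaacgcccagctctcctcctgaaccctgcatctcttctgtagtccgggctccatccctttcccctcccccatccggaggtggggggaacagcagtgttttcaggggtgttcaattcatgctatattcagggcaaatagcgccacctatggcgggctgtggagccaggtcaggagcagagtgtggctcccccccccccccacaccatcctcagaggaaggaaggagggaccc
Cdkn1a upstream promoter: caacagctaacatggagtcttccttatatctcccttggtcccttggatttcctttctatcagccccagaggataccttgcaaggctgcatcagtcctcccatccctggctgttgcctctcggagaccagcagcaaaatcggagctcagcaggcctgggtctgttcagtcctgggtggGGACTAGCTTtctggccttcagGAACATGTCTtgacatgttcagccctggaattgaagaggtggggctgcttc
The Cdkn3 promoter held 3 CCAAT boxes, a number reached by 2.79% of all promoters, and 1 CHR element. The Cdkn1b promoter held 2 CCAAT boxes, which 10.1% of all promoters reached. The upstream Cdkn1a promoter held 2 p53 decamers, as 0.259% of all promoters did. Cdkn2b had 1 CHR element, Cdkn2d had 1 CCAAT box and 1 p53 decamer, and neither of the Cdkn2c promoters held any of these letters. A match is a run of letters and not a measured binding site. The probe that reports Cdkn3 is the following 60-mer, with nothing marked, at chr14:47386895-47386954 of mm9 on the plus strand.
Cdkn3 probe: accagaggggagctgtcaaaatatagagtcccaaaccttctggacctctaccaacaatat

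Values are log2 processed signals relative to the 75th percentile of the same array, so that 0 is the signal of that percentile, and levels are not compared between probes. Before scaling, this percentile was 222 to 280 intensity units in DMSO, 257 to 337 in rapamycin, 78.1 to 246 in BA+DMSO and, in BA+rapamycin, 74.6 to 109, and no spot was saturated. All DMSO arrays and rapamycin replicate 1 lay on slide 1, and the 8 other arrays on slide 2. In vehicle-treated mice the challenge can therefore hardly be told apart from the slide. Rapamycin replicates 2 and 3 shared slide 2 with the challenged arrays. BA+DMSO replicate 2 stood apart from its group in many of the values below, and values without it are given for many of the comparisons that hold its group. It was picked from these same values, and leaving it out widens differences in which it lies nearest the other group. For the challenge, 38% of all probes were called without BA+DMSO replicate 3, the brightest of its group. Without replicate 2 the share was 27.2%. In whole aorta, fewer cells of a type and less RNA per cell cannot be told apart. The smooth muscle markers fitted the labelled tissue, with 9 of 9 well above background on all arrays.

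**Figure D1:**
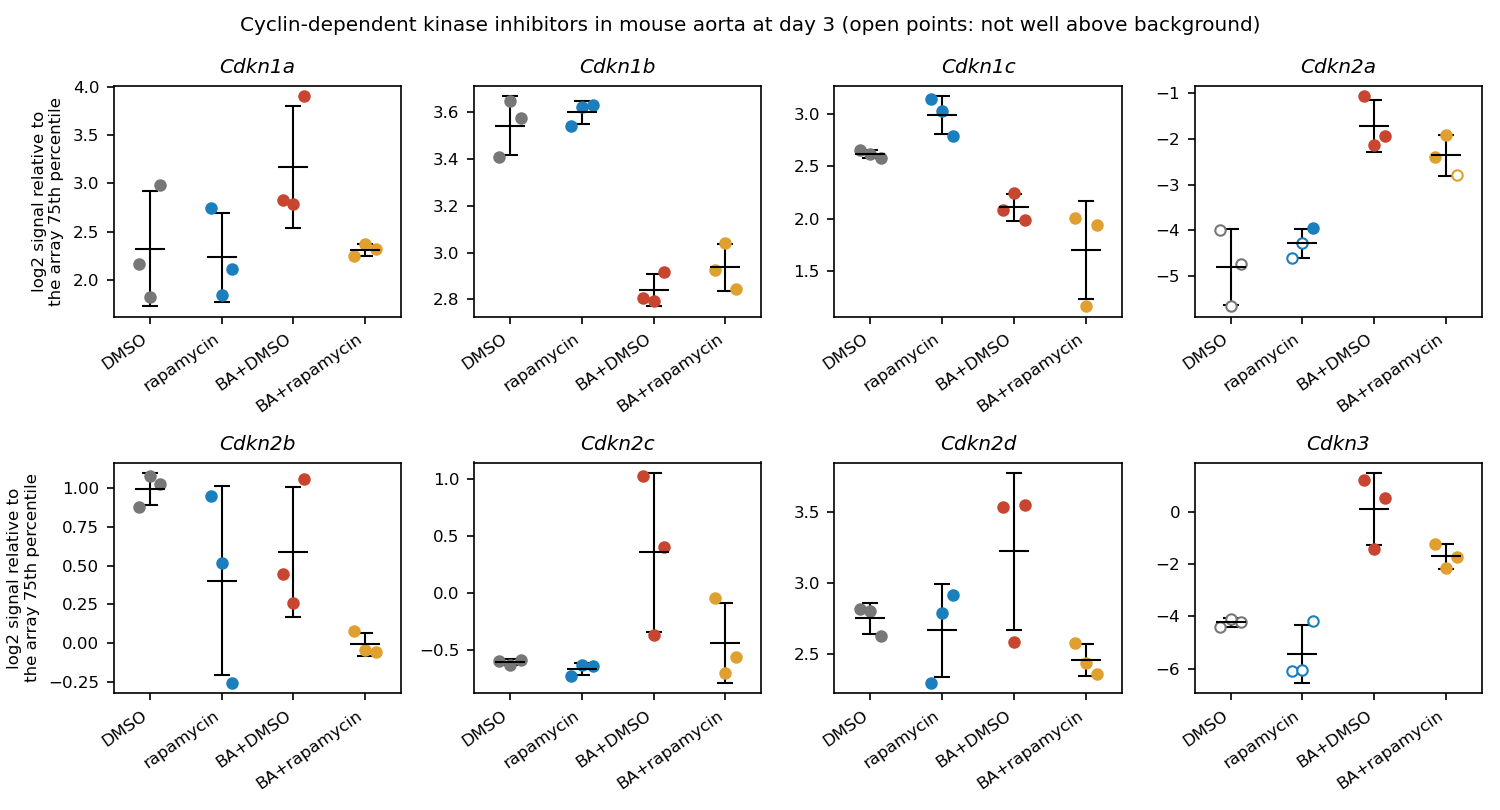
Each panel shows 1 inhibitor by the probe that stands for it, with log2 signal relative to the array's 75th percentile on the vertical axis, 1 point per array, and bars for the mean ± SD of 3 arrays. Open points were not well above background. All BA arrays lie above all other arrays for Cdkn3 and Cdkn2a and below them for Cdkn1b and Cdkn1c.

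The first comparison asked which inhibitors differed between challenged and unchallenged vehicle-treated mice. RNA of Cdkn3, Cdkn2a and Cdkn2c rose and RNA of Cdkn1b fell in BA+DMSO against DMSO. The largest difference was that of Cdkn3, at least 17.6-fold, and the smallest that of Cdkn1b, 1.63-fold. In limma, 4 of the 8 genes were called at an adjusted p under 0.05, against 20.5% of the 27801 probes tested. By direction 3 were called higher (9.65% of all probes) and 1 lower (10.8%). Cdkn3 and Cdkn2a passed the filter on dim probes only through groups in which they were high, so the count of 4 is a description and not support for a change of the family. With the filter on all 12 arrays these genes drop out, and Cdkn1b and Cdkn2c were called, against 24.3% of the probes left. The 4 other genes, Cdkn1a, Cdkn1c, Cdkn2b and Cdkn2d, were not called. With the slide as a block none of the 8 was called, and 15 of all probes were, or 0.054%. The log2 differences there were 3.37 for Cdkn3, 2.61 for Cdkn2a, 0.87 for Cdkn2c and -0.79 for Cdkn1b. With the date in the title as a block none of the 8 was called, against 6.16% of all probes, at 5.13, 2.51, 1.099 and -0.68 for the same genes. BA+DMSO replicates 2 and 3 have no date, so this value rests on BA+DMSO replicate 1, which shares no date with DMSO and is tied to it through BA+rapamycin arrays. The groups share no slide, and the slide block rests on the rapamycin arrays alone. Without BA+DMSO replicate 2 the differences were 5.11 for Cdkn3, 3.30 for Cdkn2a, 1.32 for Cdkn2c and -0.68 for Cdkn1b, and all were called. They were then 1.04 for Cdkn1a, -0.58 for Cdkn1c and -0.24 for Cdkn2b, and none of these was called.

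Cdkn3, the Cdk2 phosphatase, was not well above background on any array without the challenge. It read -4.40, -4.09 and -4.20 in DMSO and -6.09, -6.06 and -4.17 in rapamycin. It read 1.23, -1.42 and 0.53 in BA+DMSO and -1.22, -2.17 and -1.72 in BA+rapamycin, well above background on all 6 arrays. After scaling, the challenged arrays did not overlap with the others. Before scaling, BA+rapamycin replicate 2, at 16.6 intensity units, lay below rapamycin replicate 3, at 18.7. Arrays did not overlap for 34.6% of all probes in BA+DMSO against DMSO and for 65.9% in BA+rapamycin against rapamycin. BA+DMSO replicate 2 fell inside the range of BA+rapamycin, and the other BA+DMSO arrays lay above that range. BA+DMSO was at least 17.6-fold higher than DMSO (fitted log2 difference 4.34, SE 0.65, limma adjusted p = 0.00171). This bound sets the mean of the brighter group against, on each dim array, the higher of the probe's own signal and the lowest signal well above background. BA+rapamycin was at least 5.10-fold higher than rapamycin (fitted log2 difference 3.74, SE 0.65, limma adjusted p = 0.0021). Background correction by normexp, a model that lifts dim signals, gave smaller log2 differences of 2.34 and 1.56 and kept both calls.

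Cdkn2a, the gene of p16 and Arf, was also near background without the challenge. Its values were -3.99, -5.66 and -4.74 in DMSO, none well above background, and -4.59, -4.28 and -3.96 in rapamycin, of which only the last was. They were -1.07, -2.14 and -1.93 in BA+DMSO, all well above background. They were -2.38, -1.90 and -2.79 in BA+rapamycin, of which the last was not well above background. All challenged arrays exceeded all others. BA+DMSO was at least 4.53-fold higher than DMSO (fitted log2 difference 3.08, SE 0.42, limma adjusted p = 0.00109). After scaling, BA+rapamycin exceeded rapamycin by a fitted 1.92 on the log2 scale (SE 0.42, limma adjusted p = 0.00598), although the unscaled signals overlapped. The probe was well above background on 1 of 3 rapamycin arrays and 2 of 3 BA+rapamycin arrays. With normexp the differences were smaller, 1.24 and 1.18, and both stayed called, with the limit given for Cdkn3. With the date in the sample titles as a block, over the arrays that have one, the difference of BA+rapamycin from rapamycin was 0.12. The probe lies at chr4:88920405-88920464 of mm9 in sequence for which the files list the RefSeq records of both transcripts, so p16 and Arf RNA cannot be separated here. A neighbouring Cdkn2a probe was not well above background on any array. After scaling it still read 1.43 higher in BA+rapamycin than in rapamycin, with no overlap of the arrays. In BA+DMSO against DMSO it read 0.77 higher, with overlap. The part of the scaling in the Cdkn2a differences was not tested further.

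Cdkn2b, the gene of p15 and the neighbour of Cdkn2a on chromosome 4, was not called in any comparison with unweighted arrays. Its brighter probe, at chr4:88952276-88952335 of mm9, read 0.88, 1.08 and 1.03 in DMSO and 0.95, 0.52 and -0.26 in rapamycin. It read 0.45, 0.26 and 1.06 in BA+DMSO and 0.08, -0.04 and -0.06 in BA+rapamycin. The groups overlapped except that each BA+rapamycin array lay below each BA+DMSO array and each DMSO array. The challenge difference was -0.41 with a 95% interval from -1.05 to 0.23, whose upper end lies below a 2-fold rise. The other tested Cdkn2b probe, which was not well above background on any BA+rapamycin array, was not called either.

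Cdkn2c, the gene of p18, was called higher in BA+DMSO than in DMSO, but narrowly. It read -0.60, -0.63 and -0.58 in DMSO and -0.73, -0.63 and -0.64 in rapamycin, so that the unchallenged arrays lay close together. It read 1.03, -0.36 and 0.41 in BA+DMSO and -0.04, -0.70 and -0.56 in BA+rapamycin. BA+DMSO lay above DMSO on each array, and its replicate 2 was the lowest of its group. The difference was 0.96 on the log2 scale (SE 0.30, limma adjusted p = 0.0445). The call was lost with quantile normalization (adjusted p = 0.0669 in limma), in the deposited matrix and without the filter on dim probes. Leaving out 1 array ended this call in 10 of 12 cases, with differences from 0.63 to 1.32. Without BA+DMSO replicate 2 the difference was 1.32 (adjusted p = 0.00299). In BA+rapamycin against rapamycin it was 0.23, with an interval from -0.43 to 0.89 that includes 0.

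Cdkn2d, the gene of p19, was bright on all arrays and was not called. It read 2.82, 2.81 and 2.63 in DMSO and 2.30, 2.80 and 2.92 in rapamycin. It read 3.54, 2.59 and 3.55 in BA+DMSO and 2.58, 2.44 and 2.36 in BA+rapamycin. The challenge difference was 0.47 (SE 0.26, limma adjusted p = 0.225), and BA+DMSO replicate 2 alone of its group lay below the DMSO values. Without that array the difference was 0.79 (limma adjusted p = 0.0124). Then 5 of the 8 genes were called, against 27.2% of all probes.

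Cdkn1b, the gene of p27, moved the other way. Its brighter probe, at chr6:134875424-134875483 of mm9, read 3.41, 3.65 and 3.57 in DMSO and 3.54, 3.62 and 3.63 in rapamycin. It read 2.81, 2.79 and 2.92 in BA+DMSO and 2.92, 3.04 and 2.84 in BA+rapamycin. All challenged arrays lay below all unchallenged arrays, and BA+DMSO replicate 2 did not stand apart. Cdkn1b was 1.63-fold lower in BA+DMSO than in DMSO (log2 difference -0.70, SE 0.14, limma adjusted p = 0.00762). With the slide as a block this difference was -0.79 and was not called (limma adjusted p = 0.362). In BA+rapamycin the level was 1.58-fold lower than in rapamycin (log2 difference -0.66, SE 0.14, limma adjusted p = 0.0056). The other Cdkn1b probe, at chr6:134873606-134873665, did not show this: its groups overlapped, and its challenge difference was -0.18 with an interval from -0.86 to 0.50. The mean of both probes differed by -0.44 and was not called (limma adjusted p = 0.113).

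Cdkn1c, the gene of p57 and an imprinted growth inhibitor, was lower on each challenged array than on each unchallenged one. It read 2.66, 2.62 and 2.57 in DMSO and 3.14, 3.03 and 2.79 in rapamycin. It read 2.09, 2.25 and 1.99 in BA+DMSO and 2.01, 1.17 and 1.94 in BA+rapamycin. The difference in vehicle-treated mice was -0.51 (SE 0.22, limma adjusted p = 0.127) and missed the threshold. In rapamycin-treated mice the level fell by 1.28 on the log2 scale, 2.43-fold (SE 0.22, limma adjusted p = 0.00206). The interaction of -0.77 had an unadjusted p = 0.0309 and an adjusted p = 0.737 in limma, so these differences are not shown to be unequal.

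Cdkn1a, the gene of p21, was not called by any probe. The probe near the end of the transcript, at chr17:29237377-29237436 of mm9, read 2.16, 1.82 and 2.99 in DMSO and 2.74, 1.84 and 2.11 in rapamycin. It read 2.83, 2.79 and 3.90 in BA+DMSO and 2.24, 2.37 and 2.32 in BA+rapamycin. DMSO and BA+DMSO overlapped, and the challenge difference was 0.85 (SE 0.37, limma adjusted p = 0.125). A probe for a transcript variant, at chr17:29227986-29228045, read -1.84, -2.47 and -1.23 in DMSO and -1.56, -2.45 and -0.56 in BA+DMSO. It read -2.13, -2.56 and -2.34 in rapamycin and -2.30, -4.53 and -3.16 in BA+rapamycin, where only 1 array was well above background. Its challenge difference was 0.32, with an interval from -0.94 to 1.59.

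**Figure D2:**
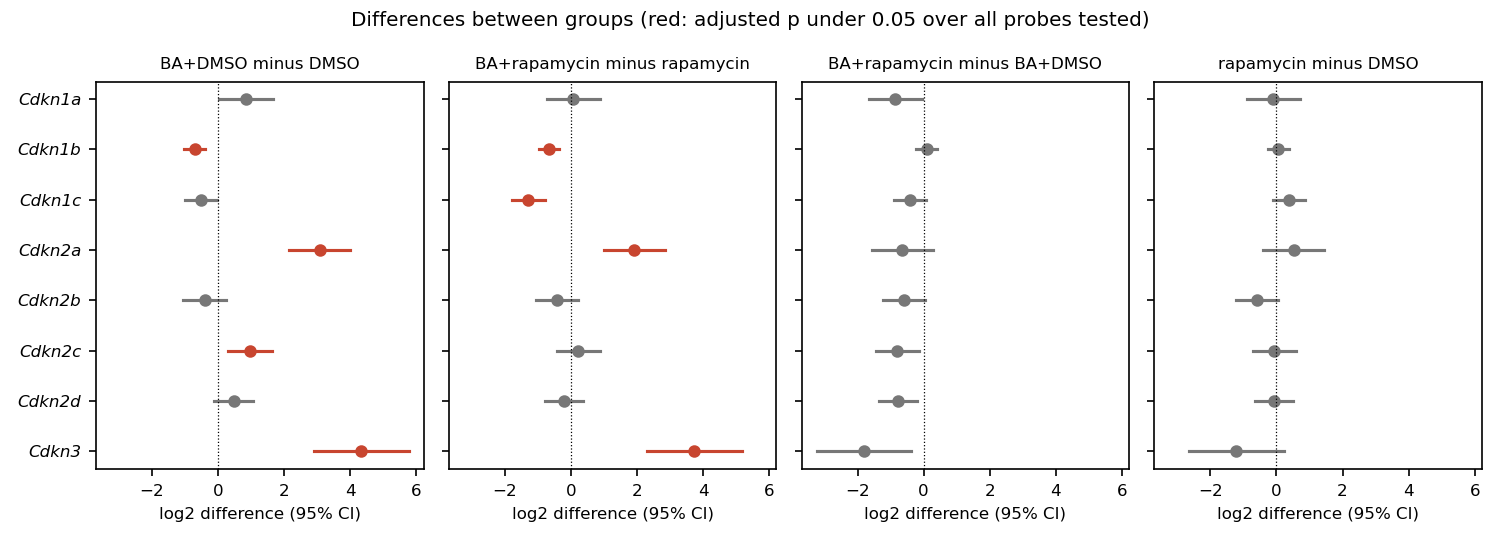
Log2 differences of the 8 inhibitors (points) with 95% confidence intervals (lines) in 4 comparisons, with genes called at an adjusted p under 0.05 in red. The challenge has 4 called genes in vehicle-treated mice and 4 in rapamycin-treated mice, and neither rapamycin comparison has one.

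Under rapamycin Cdkn3 and Cdkn2a were higher, and Cdkn1b and Cdkn1c lower, with the challenge than without it. These 4 of 8 genes compare with 41.7% of all probes called. By direction 2 were called higher (18.9% of all probes) and 2 lower (22.9%), and the filter bears on Cdkn3 and Cdkn2a here too. With the filter on all 12 arrays Cdkn1b and Cdkn1c were called, against 48% of the probes left. Within slide 2, where 2 rapamycin arrays met 3 BA+rapamycin arrays, the differences were 3.41 for Cdkn3, 1.76 for Cdkn2a, -1.20 for Cdkn1c and -0.69 for Cdkn1b. The first 3 of these were called (limma adjusted p = 0.0373, 0.0332 and 0.044) and Cdkn1b was not (adjusted p = 0.0686), against 11.8% of all probes called within that slide. With the slide as a block all 4 were called, against 28.5% of all probes. With array brightness as a covariate 1 of the 8 was called, Cdkn3 (5.77), against 6.41% of all probes. The differences of the other 3 were then 1.96 for Cdkn2a, -1.26 for Cdkn1c and -0.62 for Cdkn1b. With the date in the title as a block 0 were called, against 13% of all probes, at 3.65 for Cdkn3, 0.12 for Cdkn2a, -1.03 for Cdkn1c and -0.58 for Cdkn1b.

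The comparison that tests the drug in the challenged aorta, BA+rapamycin against BA+DMSO, lies within slide 2. None of the 8 inhibitors was called in limma, against 0.281% of all probes. At an unadjusted p under 0.05, Cdkn1a, Cdkn2c, Cdkn2d and Cdkn3 were lower with rapamycin. These 4 of 8 genes compare with 11% of all probes lower at that p. Of the 8 differences 7 were below 0, against 50.7% of all probes, and their median was -0.71 against -0.01 over all probes. The exception was Cdkn1b, at 0.10 (interval from -0.22 to 0.41), which under normexp was at -0.04. The largest difference was -1.81 for Cdkn3 (SE 0.65, unadjusted p = 0.0174, adjusted p = 0.187 in limma). Cdkn2d differed by -0.76 (SE 0.26, adjusted p = 0.177), Cdkn1a by -0.86 (SE 0.37, adjusted p = 0.231) and Cdkn2c by -0.79 (SE 0.30, adjusted p = 0.204). Arrays of the pair of groups did not overlap for Cdkn1a, Cdkn2b and Cdkn2d, and overlapped for the 5 others. These 3 of 8 compare with 14.5% of all probes without overlap in either direction and 7.57% lower without overlap.

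These calls turned on BA+DMSO replicate 2. Without it, Cdkn3 was lower by 2.58 on the log2 scale (SE 0.54, limma adjusted p = 0.00715). Cdkn2c fell by 1.15 (SE 0.22, limma adjusted p = 0.00576) and Cdkn2d fell by 1.08 (SE 0.18, limma adjusted p = 0.00398). These 3 of 8 genes compare with 22.5% of all probes called lower without that array. Cdkn1a then differed by -1.05, Cdkn2a by -0.86, Cdkn2b by -0.76, Cdkn1c by -0.33 and Cdkn1b by 0.07, and none of these was called. Leaving out any other array gave no call among the 8. That array was dim, at 78.1 intensity units against 132 and 246 in its group, and its title, like that of replicate 3, holds no date. Among proliferation markers its median difference from the DMSO mean was 1.61, against 4.26 and 3.46 in the other BA+DMSO arrays and 1.67 to 2.05 in BA+rapamycin. With array brightness as a covariate, over all arrays, 0 of the 8 inhibitors were called in BA+rapamycin against BA+DMSO, against 1.12% of all probes. The part of brightness in the values of BA+DMSO replicate 2 was not tested further.

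**Figure D3:**
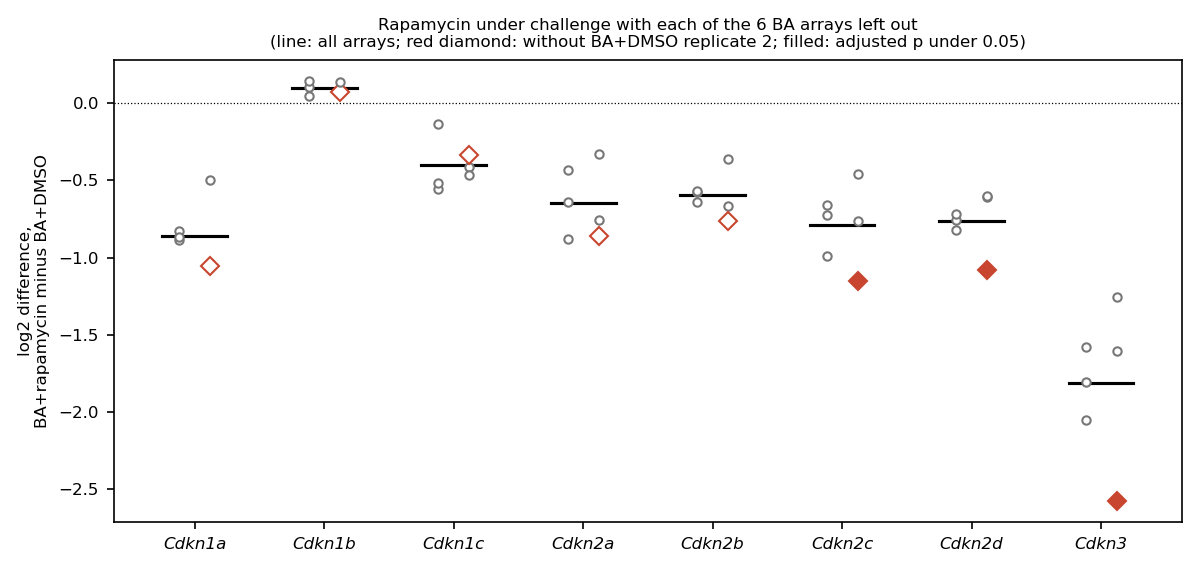
Log2 difference of BA+rapamycin minus BA+DMSO for each inhibitor, with all arrays (line) and with each of the 6 BA arrays left out (points). Without BA+DMSO replicate 2 (red diamonds), Cdkn2c, Cdkn2d and Cdkn3 pass an adjusted p under 0.05 (filled), and without any other BA array none does.

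Rapamycin without the challenge moved none of the 8 inhibitors past the threshold in limma, against 0.0036% of all probes. None of the 8 had an unadjusted p under 0.05, against 1187 of the 27801 probes tested. The difference furthest from 0 was that of Cdkn3, at -1.21, where both groups were at background. Next was Cdkn2b at -0.59, with an interval from -1.23 to 0.05. This comparison too is partly tied to the slide. Rapamycin replicate 1, the only rapamycin array on the slide of DMSO, stood at -0.047 from the DMSO mean for Cdkn2b. Replicates 2 and 3 stood at -0.48 and -1.25. For Cdkn1c the difference between the groups was 0.37, with an interval from -0.12 to 0.86 and no overlap of the arrays, as for 21.5% of all probes. The interaction, the challenge difference under rapamycin minus that under vehicle, was called for none of the 8 genes and for 0% of all probes. At an unadjusted p under 0.05 it held 1 of the 8 genes, Cdkn1c, and 1702 of the 27801 probes tested. Without BA+DMSO replicate 2, Cdkn2c (-1.09, limma adjusted p = 0.0485) and Cdkn2d (-1.0005, limma adjusted p = 0.0407) were called, against 11% of all probes.

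Ordered by group mean of the scaled values, Cdkn3, Cdkn2c and Cdkn2a were highest in BA+DMSO, next in BA+rapamycin, and lower in the unchallenged groups. For Cdkn3 and Cdkn2a a gap free of overlap lay between BA+rapamycin and the unchallenged groups, and the other neighbours in the order overlapped. For Cdkn2c all neighbours in the order overlapped. Cdkn1b was highest in rapamycin and DMSO, which overlapped, and its BA groups overlapped with each other. Cdkn1c fell in the order rapamycin, DMSO, BA+DMSO, BA+rapamycin, and only the last neighbours overlapped. For Cdkn1a, Cdkn2b and Cdkn2d all neighbours overlapped.

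The inhibitors act on cyclins and kinases, and these moved in the challenged aorta as follows. Of the cyclins and the kinase of S phase to mitosis, 5 of 5 tested genes rose in BA+DMSO against DMSO, with a median of 4.19 against -0.04 over all probes, of which 20.5% were called and 9.65% called higher. Of these 5 genes 3 passed the filter on dim probes only through challenged groups, as did 2 of the 18 proliferation markers, so their counts are a description. Cdk1, the mitotic kinase, was higher by at least 11.3-fold (adjusted p = 0.000511 in limma). Ccnb1, its mitotic cyclin, rose by 4.93 on the log2 scale, and Ccna2, the cyclin of S phase, by 4.19. Of the G1 cyclins and kinases 3 of 6 were called, or 50% against 20.5%, with a median of 0.48. Ccne1, the cyclin of Cdk2, rose by 3.67, and Ccnd1, a partner of Cdk4, by 1.88. Ccnd2, another cyclin D, fell by 0.90 on the same scale. The list of proliferation markers had 14 of 18 called, all higher (77.8% against 9.65% of all probes), with a median of 3.17. Mki67, the gene of the Ki-67 antigen, rose by 4.31, Birc5, the gene of survivin, by 4.33, and Top2a, a topoisomerase of dividing cells, was at least 14.9-fold higher.

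Among the Rb and E2F family, which the kinases act on, 5 of 12 were called, 3 higher and 2 lower, which is 41.7% against 20.5% of all probes, with a median of 0.07. E2f1 and E2f2, activators of S phase genes, rose by 2.24 and 2.20, and Rbl1, an Rb relative, rose by 1.48. Rbl2, another Rb relative, fell by 0.83 and Tfdp2, a partner of the E2F proteins, fell by 0.81 on the same scale, and both were named after their values were seen, to complete the count. Of the enzymes that add or remove phosphate on the kinases 1 of 7 (14.3%) was called, Pkmyt1, the kinase that restrains Cdk1, which rose by 1.36. Of the genes around p27 turnover and FoxO 2 of 11 were called, both lower. This is 18.2% of the list, against 20.5% of all probes called and 10.8% called lower, and the median was -0.12. Foxo1, a factor known to induce Cdkn1b, fell by 0.69 on the log2 scale, and Rnf123, part of a ligase for p27, fell by 1.01.

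In the p53 pathway 8 of 25 genes were called (32.0% against 20.5% of all probes), 4 in each direction, with a median of -0.06. Btg2 and Trp53inp1, p53 targets that restrain growth, fell by 2.01 and 1.97 on the log2 scale, and Plk2, another target, rose by 1.82. Among regulators of the Ink4 and Arf locus 6 of 20 were called (30%), 5 of them lower, with a median of -0.31. Ezh2, the methyltransferase of Polycomb, rose by 1.28. Phc1, a Polycomb protein, fell by 0.80, and Ets2, an activator of p16, fell by 0.78. In the TGF-beta arm that controls p15 3 of 11 were called (27.3%), with a median of -0.37: Tgfb1 rose by 0.81, and Tgfb3 and the factor Sp1 fell by 0.66 and 0.95. Of imprinted growth genes, the class of Cdkn1c, 4 of 12 were called (33.3%), with a median of 0.60. Of these 12 genes 1 passed the filter on dim probes only through challenged groups, so the count is a description. H19 rose by 3.73 and Meg3 by 0.88, both noncoding RNAs, and Peg3 fell by 1.04.

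In the challenge under rapamycin the cyclins of S phase to mitosis again had 5 of 5 genes higher, with a median of 3.95, and proliferation markers had 11 of 18 higher (61.1%), with a median of 2.18. Of all probes 41.7% were called there, 18.9% higher and 22.9% lower. The genes of p27 turnover and FoxO had 6 of 11 called (54.5%), all lower, with a median of -0.59 against -0.08 over all probes. The share called was 63.6% in the TGF-beta arm and 57.1% for the enzymes that act on the kinases. It was 55% for regulators of Ink4 and Arf and 48% in the p53 pathway. Most of the calls in these lists were lower. The G1 cyclins and kinases, the Rb and E2F family and the imprinted growth genes had 50% each. In BA+rapamycin against BA+DMSO no gene of any list was called by limma, with all arrays. The medians there were -1.39 for cyclins of S phase to mitosis and -1.19 for proliferation markers, against -0.01 over all probes.

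The lists depended on BA+DMSO replicate 2. Without it, 17 of 18 proliferation markers and 4 of 5 cyclins of S phase to mitosis were called lower in BA+rapamycin against BA+DMSO, against 39.9% of all probes called and 22.5% called lower, with medians of -1.89 and -2.05. Of the G1 cyclins and kinases 5 of 6 were then called, all lower, with a median of -0.71. The enzymes that act on the kinases had 5 of 7 called, all lower, and the TGF-beta arm 3 of 11, all lower. The Rb and E2F family had 1 higher and 6 lower of 12, and p27 turnover and FoxO 1 higher and 5 lower of 11. The p53 pathway had 2 higher and 5 lower of 25, and the Ink4 and Arf regulators 3 higher and 6 lower of 20. Imprinted growth genes had 3 higher and 5 lower of 12. In BA+DMSO against DMSO without that array, 5 of 6 G1 cyclins and kinases, 2 of 7 enzymes that act on the kinases and 4 of 11 genes of p27 turnover and FoxO were called, against 27.2% of all probes. The last of these lists then had 2 genes in each direction. Of the imprinted growth genes 6 of 12 were called. The Rb and E2F family had 7 of 12 called, the p53 pathway 10 of 25 and the Ink4 and Arf regulators 7 of 20. The TGF-beta arm had 2 genes called higher and 1 lower of 11, against 1 higher and 2 lower with all arrays. Its median was -0.13, against -0.37 with all arrays. The cyclins of S phase to mitosis kept a count of 5 of 5 and the proliferation markers had 17 of 18 higher.

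**Figure D4:**
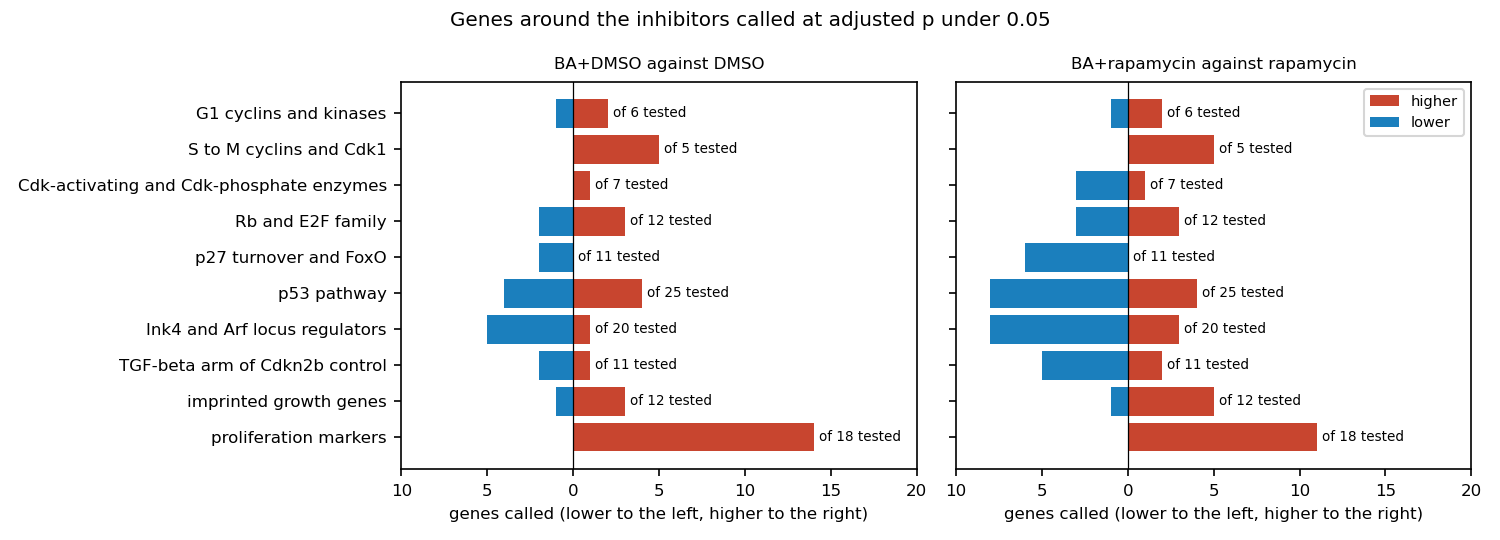
Number of genes in each list around the inhibitors that were called higher (red, right) or lower (blue, left) at an adjusted p under 0.05, beside the number tested, for the challenge in vehicle-treated and rapamycin-treated mice. Cyclins of S phase to mitosis and proliferation markers were called only in the higher direction, and genes of p27 turnover only in the lower.

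Set beside the proliferation markers array by array, Cdkn3 and Cdkn2c were highest on the arrays with the highest marker medians, BA+DMSO replicates 1 and 3. Relative to the DMSO mean, Cdkn3 stood at 5.46 and 4.76 and Cdkn2c at 1.63 and 1.01 on these arrays. Cdkn2d stood at 0.79 and 0.80 there, and between -0.39 and -0.17 on the other 4 challenged arrays. Cdkn1b lay between -0.75 and -0.50 on all 6 challenged arrays. No DMSO array measured Cdkn3 well above background, so the distances of Cdkn3 from the DMSO mean have no exact size. All of these points come from the same arrays and share their scaling, and no test was made of their relation.

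**Figure D5:**
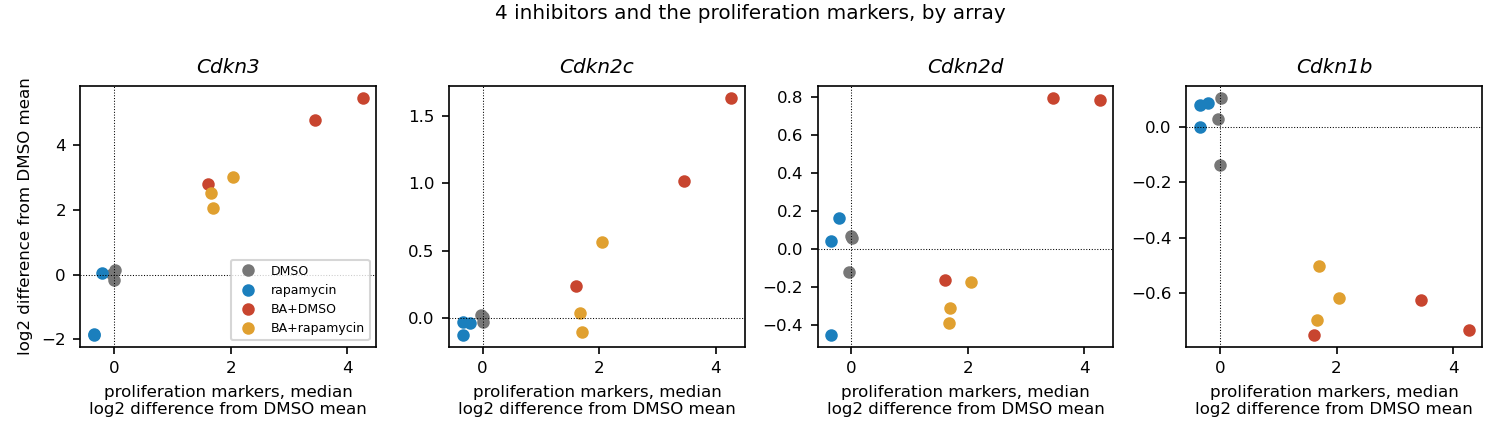
Each point is 1 array: the horizontal axis is the median log2 difference of the proliferation markers from the DMSO mean, and the vertical axis the log2 difference of the inhibitor from its DMSO mean. BA+DMSO replicates 1 and 3 (red, right) are highest for Cdkn3, Cdkn2c and Cdkn2d, whereas all 6 challenged arrays lie at or below -0.50 for Cdkn1b.

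For each inhibitor called in some comparison, the 3 genes with the most similar profile were found among 14882 tested gene symbols, by the root mean square (RMS) difference over 12 arrays after centring. For Cdkn3 they were Ube2c, Spc25 and Kif20a, with RMS differences of 0.33, 0.38 and 0.44 on the log2 scale. Ube2c is a ubiquitin enzyme of the anaphase-promoting complex, Spc25 a kinetochore protein and Kif20a a kinesin of cytokinesis. For Cdkn2c they were Smc4 (0.16), a condensin subunit, Tmem48 (0.18), a nuclear pore protein, and D14Ertd668e (0.20). For Cdkn2a they were Gp49a (0.34), a receptor of myeloid cells, Dclk1 (0.35), a microtubule kinase, and Rac2 (0.37), a GTPase of blood cells. For Cdkn1b they were Matr3, Ulk1 and Rai1, with RMS differences of 0.08, 0.09 and 0.09. For Cdkn1c they were Gm13212 (0.13), Foxo1 (0.19) and Fnip2 (0.19).

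Of the markers of cell types that whole aorta can hold, those of macrophages and red cells were called most often in BA+DMSO against DMSO. Of 11 macrophage markers, 10 were called higher in BA+DMSO against DMSO, against 9.65% of all probes, with a median of 2.23. Under rapamycin 8 of 11 were called higher, against 18.9%, with a median of 1.46. Their summed signal, in multiples of the 75th percentile, was 111 to 142 in DMSO, 122 to 145 in rapamycin, 192 to 493 in BA+DMSO and, in BA+rapamycin, 381 to 507. Itgam, with log2 means of 6.58 in DMSO and 7.70 in BA+DMSO, carried much of this sum. It was the marker not called for the challenge (limma adjusted p = 0.0906). Of these markers 9 were well above background on all arrays, and 1, Msr1, a scavenger receptor, passed the filter only through a challenged group.

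Erythroid markers were higher in 4 of 4 tested genes, with a median of 1.87, and under rapamycin in 3 of 4, with a median of 1.80. Their summed signal was 18.1 to 84.2 in DMSO, 80.5 to 187 in rapamycin, 114 to 234 in BA+DMSO and, in BA+rapamycin, 309 to 350. Of 5 tested neutrophil markers 1 was called higher in each of these comparisons, with medians of 1.64 and 0.25. Most of the neutrophil summed signal came from Csf3r, a receptor for a myeloid growth factor that was not called for the challenge, and the markers Ngp and Cxcr2 were not well above background on any array. That sum was 206 to 257 in DMSO, 202 to 242 in rapamycin, 155 to 601 in BA+DMSO and, in BA+rapamycin, 503 to 657. BA+DMSO replicate 3 had the lowest sum, whereas the median difference of the list from the DMSO mean was 1.35 on that array.

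Of 9 smooth muscle markers 1 was called for the challenge, lower, with a median of -0.61. On the BA+DMSO arrays the median difference from the DMSO mean was -1.49, 0.16 and -0.40, so that replicate 2 lay on the other side of 0. Without replicate 2, 5 of 9 were called, all lower, against 27.2% of all probes, with a median of -1.07. Under rapamycin 1 was called higher and 3 lower, with a median of -0.56. On the BA+rapamycin arrays the median difference from the DMSO mean lay between -0.45 and -0.36. Their summed signal, which a few bright probes carry, was not lower in BA+rapamycin, at 2876 to 3098 in DMSO, 2614 to 3078 in rapamycin, 2465 to 4857 in BA+DMSO and, in BA+rapamycin, 3495 to 4529. Of the further lists several lay near or below the share of all probes called, 20.5% for the challenge and 41.7% under rapamycin. Endothelial markers had 2 of 8 called, both higher, and under rapamycin 2 higher and 2 lower. Lymphocyte markers had 2 of 6 called higher in both comparisons. Brown adipocyte markers had 2 of 4 called higher, of which Ucp1, the uncoupling protein, passed the filter only through a challenged group, and under rapamycin 1 higher and 2 lower. Fibroblast markers had 1 of 6 called higher, and under rapamycin 2. Striated muscle markers had 0 of 6 called, and under rapamycin 1 higher and 2 lower, and white adipocyte markers had 0 of 5 called in both. For the challenge without BA+DMSO replicate 2, 2 of 6 fibroblast markers were called higher and 1 of 6 striated muscle markers lower. Of 4 brown adipocyte markers 2 were then called higher and 1 lower, against 27.2% of all probes called. The white adipocyte median was then 0.87, against 1.42 with all arrays. The part of these cells in the differences of Cdkn3, Cdkn2a, Cdkn2c, Cdkn1b and Cdkn1c was not tested.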

How the data were processed

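RNA of 12 mouse aortas was hybridised by the authors to 1-colour Agilent arrays. Per the file headers, Feature Extraction 10.7.1.1 read the images and probes are placed on mm9. The deposited scanner files hold processed, spot and background signals as intensity, and other columns of flags, all from the authors' scanner. The deposited matrix holds intensity that was quantile normalized. The log2 processed signal was averaged over the spots of a probe without outlier flags and scaled to the array's 75th percentile. Probes with at least a share of 0.5 of spots well above background on all 3 arrays of a group were tested, 27801 of 55681, in limma 3.58.1 (R 4.3.3) with a mean per group over all 12 arrays. P-values were two-sided and Benjamini-Hochberg adjusted within each of 5 contrasts, over all probes tested. A gene stood by its tested probe with the highest mean. The fit was tested on simulated data. Precision is limited by the number of arrays. P-values rest on the spread between arrays of a group, each of 1 mouse, in which mouse and array are not separated. They do not cover the slide difference between DMSO and BA+DMSO. From each list of genes around the inhibitors, up to 3 called genes with groups that did not overlap and the largest differences were named, and the 3 most similar profiles of each called member. Members and lists were chosen with earlier results of these data known. Slide, date in the title, brightness, scaling, filter, probe and single arrays were tried as alternatives. The study's array methods name no test, and its threshold was an alternative.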

Additional observations from a re-analysis of the deposited data

How the results depend on the processing

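The number of inhibitors called for the challenge was 4 with all arrays. With the share of all probes called in parentheses, it was 0 with the slide (0.054%) or the date in the title (6.16%) as a block and 0 with array weights whose estimate stopped before convergence (0.403%). It was 2 with the filter on all 12 arrays (24.3%), with only the groups compared (4.47%) or with the study's threshold (2.51%). It was 3 with quantile normalization (19.7%), the deposited matrix (19.6%) and no filter (7.65%), where Cdkn2c lost its call, and 3 with the mean of probes (21.3%) or the second probe (20.5%), where Cdkn1b did. It was 5 with normexp (23.7%), which added Cdkn1c, 5 with brightness as a covariate (18.3%), which added Cdkn2d, and 6 with weights estimated gene by gene (46.1%), which added both. For the challenge under rapamycin, 4 with all arrays, it was 1 with brightness as a covariate (6.41%), 0 with the date block (13%), 2 with the filter on all 12 arrays (48%) and 1 with the study's threshold (5.14%). It was 3 with the mean of probes (42.3%) or the second probe (41.7%) and within slide 2 (11.8%), and 5 with the unconverged weights (65.7%), which added Cdkn2b. That filter removes Cdkn2a and Cdkn3, which lack signal in some groups. For the other 3 contrasts, 0 with all arrays, the unconverged weights gave 1 for rapamycin alone (5.44%). The weights estimated gene by gene, an alternative chosen after seeing the data, gave 3 for rapamycin under challenge (25.5%) and 1 for the interaction (3.34%). Leaving out 1 array gave 3 to 5 for the challenge (7.38% to 38%) and 4 throughout for the challenge under rapamycin (23.5% to 56.9%). It gave 0 to 3 for rapamycin under challenge (0.108% to 39.9%) and 0 for rapamycin alone (0% to 0.0144%). For the interaction it gave 0 to 2 (0% to 11%). Of the single-gene differences under these settings, 1012 kept their direction and side of the threshold, 39 lost a call, 17 gained one and 41 changed sign. Apart from the filter, the cause was not tested.

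Differences that changed sign were not called in either setting. For Cdkn1a the challenge under rapamycin, 0.08, became -0.031 and -0.013 with the weights (not converged and gene by gene), -0.45 with the mean of its probes, -0.99 with its other probe and -0.25 with normexp, and was -0.12 to 0.33 with 1 array left out. Rapamycin alone, -0.09, became 0.11 and 0.027 with the weights and 0.41 within slide 1 or with the slide block, and was -0.35 to 0.24 with 1 array left out. For Cdkn1b the interaction became -0.13 and rapamycin under challenge -0.045 with normexp, and rapamycin alone became -0.00099 within slide 1 or with the slide block. With 1 array left out the interaction was -0.011 to 0.11 and rapamycin alone -0.012 to 0.11. For Cdkn2a rapamycin alone became -0.0013 with normexp. For Cdkn2b the challenge became 0.41 with the slide block. Its interaction became 0.11 with the 75th percentile over probes detected on all arrays, 0.17 with brightness, 0.086 with cyclic loess, 0.55 with the date block and 0.019 with normexp, and was -0.33 to 0.27 with 1 array left out. For Cdkn2d the challenge became -0.083 with the slide block, the challenge under rapamycin 0.65 with brightness and 0.030 with cyclic loess, and rapamycin alone 0.14 with the date block or the replicate block and -0.21 to 0.10 with 1 array left out. For Cdkn3 the interaction became 0.27 with brightness and 0.046 with the slide block, and was -1.37 to 0.033 with 1 array left out.

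For the challenge under rapamycin, normexp moved the median of all probes by 0.22 and the 75th percentile over detected probes by 0.18 on the log2 scale. Replicate numbers follow the order of deposition. Titles end in the same date and number for 2 DMSO and 2 rapamycin arrays, and for no arrays within the other pairs of groups compared. DMSO replicate 1 and BA+rapamycin replicate 3 also end alike, but these groups were not compared directly. A replicate block was fitted over the 4 DMSO and rapamycin arrays for rapamycin alone, chosen after seeing the data. It called 0 of the 8 inhibitors and 0.0827% of all probes. Deviations of the DMSO and rapamycin arrays with the same title ending correlated at -0.072 across probes, so the titles are not shown to pair these samples.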
